A study of Danio rerio with 2 samples.

Results

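The large ribosomal subunit, the 60S particle, is put together in the nucleolus from ribosomal RNA and ribosomal proteins by a series of assembly factors that bind and leave in order. Early factors fold and trim the RNA, and others bring in the 5S RNA particle. Later ones ready the subunit for export, and the last ones are removed in the cytoplasm. Gnl2 is a nucleolar GTPase that works on the same particles. In yeast its ortholog Nog2 has to leave before the export adapter Nmd3 can bind. The genes described here encode 54 such 60S assembly and export factors, listed by their known role, with earlier results of these data known. Of these, 30 had at least 1 gene probe on the array by gene name or by the symbol in the probe description, and 24 had none. The array as a whole carried 18025 differently named genes or transcripts.

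The RNA came from whole zebrafish embryos at 22 hours post-fertilization. The mutants were homozygous for gnl2 bw41c and were bred from heterozygous carriers, and the other genotype was wild-type TL. Part of the embryos collected went into genotyping. Each extract was made from 40 pooled embryos, and both genotypes were hybridised together on each of 2 arrays with the dyes exchanged. The mutant sample was labelled red (Cy5) on array 1 but green (Cy3) on array 2. Every ratio is mutant over wild type, so a positive log2 value is a higher signal in the mutants. Whether the TL embryos were siblings of the mutants is not stated in the labels. The series text calls the arrays biological replicates, but nothing says that the extracts came from separate clutches, so p-values measure the spread between these 2 hybridisations, which may be technical. Array, replicate and dye orientation cannot be told apart.

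Of the 43 probes for these factors, 39 for 29 genes entered the test. The only probe of surf6, an early nucleolar factor, was left out for an outlier flag (log2 ratios of 0.11 and 0.50 if kept), as were 1 probe each of ddx56 and noc3l, and 1 probe of ddx18 was too dim. No tested probe of a member was saturated in any channel, and all 39 were well above background in both genotypes. The 24 factors for which no probe was found by name include nmd3, sbds, nop2, brix1, mdn1, nle1, las1l and grwd1. A probe listed under another name would be missed. Export and the rixosome, a complex that trims the spacer RNA, are therefore thinly covered. On the arrays as a whole 19284 probes for 16332 genes or transcripts were tested, and signals were well above background at 92.7% to 96.4% of gene probes. The probe of gnl2 gave log2 ratios of -0.99 and -2.27, lower in the mutants on both arrays, and where the bw41c lesion lies relative to this probe is not stated in the labels. Of the 29 measured factors, 0 lie on the chromosome of gnl2 in the RefSeq gene table.

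By the mean of both arrays, most of the measured 60S factors had slightly higher signals in the mutants, but many were split between the arrays. The mean was above 0 for 25 of 29 and below 0 for 4, and the share of all genes was not counted. Some of these means are left over from large ratios of opposite sign, such as -1.28 and 1.63 for mak16. The median log2 ratio of the factors was 0.20, against 0.002 over all 16332 genes. The quartiles were 0.10 and 0.35 for the factors and -0.05 and 0.06 for all genes. The ratio was above 0 on both arrays for 16 factors and below 0 on both for 0, while 13 were split. Among all genes tested, 21.2% were higher on both arrays and 20.3% lower on both. Among the brighter 8166 genes by mean signal, a split chosen after seeing the data that holds 28 of the 29 factors, the shares were 22.4% and 20.4%. There the median of the means was 0.21 for the factors and 0.007 for all genes, and quartiles were not computed. The median SD between the arrays was 0.21 for the 29 factors and 0.10 for all 16332 genes. The arrays thus differed for a typical factor by about as much as the factors' median of 0.20. No test was made of the list, because it was drawn up with results of these data in view.

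**Figure D1:**
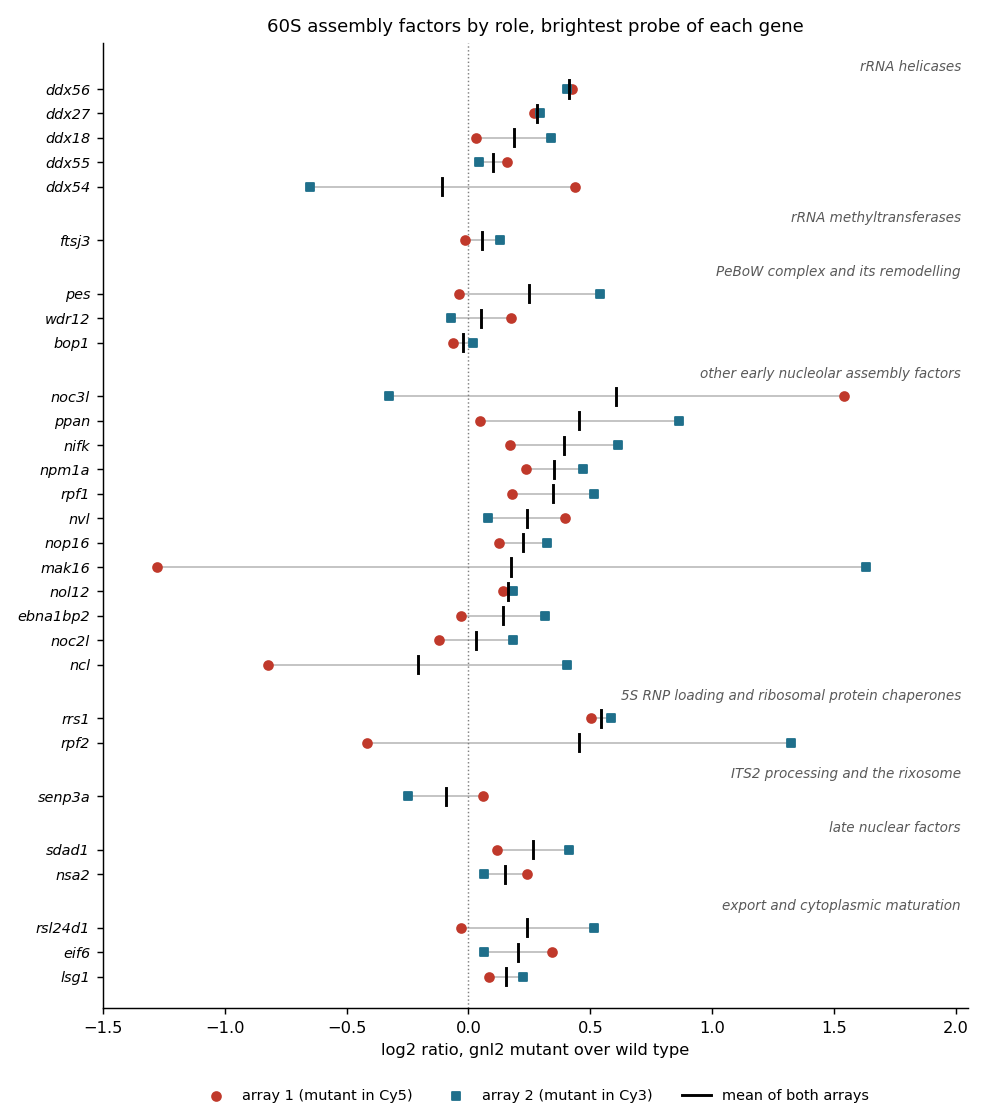
Log2 ratio of mutant over wild type for each of the 29 measured 60S assembly factors, grouped by role. Red circles are array 1, blue squares are array 2 and black bars are their mean. Of the factors 16 have both points right of 0, 0 have both left of 0, and 13 straddle the line.

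Over all 16332 genes the mutant over wild-type ratios of the arrays were correlated below 0, with a Pearson r of -0.16 and a Spearman rho of -0.20 across genes, which are not independent replicates. The arrays, which carry opposite dye orientations, did not rank genes alike, and this bears on every mean and count over both. The cause of this disagreement was not tested. The median of the factors was larger on array 2, at 0.31, than on array 1, at 0.12, and without array 2 it was therefore 0.12. On array 1, 20 of 29 factors were above 0 (53.3% of all genes), and on array 2 it was 25 of 29 (47.7% of all genes). Array 2 gave the larger ratio for 20 factors, but the share of all genes was not counted, so this count cannot be set against a background. The median over all genes was 0.01 on array 1 and -0.007 on array 2. Along the dyes, the median log2 ratio of red over green was -0.07 for the factors and 0.01 for all genes, so the median factor was slightly brighter in green than the median gene. The part of this dye difference in the single ratios was not tested.

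No factor passed the test of the study as a whole. Nor did the mutated gene gnl2, at 0.32-fold in the mean of both arrays and an adjusted p in limma of 0.99993. At an adjusted p under 0.05 limma called 0 of the 19284 probes (0.0%), and 632 probes (3.28%) had an unadjusted p under 0.05. Each of the 29 factors had an adjusted p of 1.00 at its brightest probe. The smallest among all their probes was 0.878, at the dimmer rrs1 probe. At an unadjusted p under 0.05, 4 factors were higher and 0 lower, namely rrs1, ddx56, npm1a and ddx27, against 1.97% and 1.22% of all genes. A ratio of at least 2-fold on each array, with the same sign, was found for 0 of 29 factors and 0.141% of all genes. With 1 residual degree of freedom per probe, the number of arrays limits the precision. In limma each probe has 3.49 degrees of freedom in total, and the rest come from the spread over all probes. P-values and intervals thus rest largely on that shared spread, not on a gene's own SD alone. Intervals below are limma's 95% intervals for single genes, not adjusted for the number of genes.

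**Figure D2:**
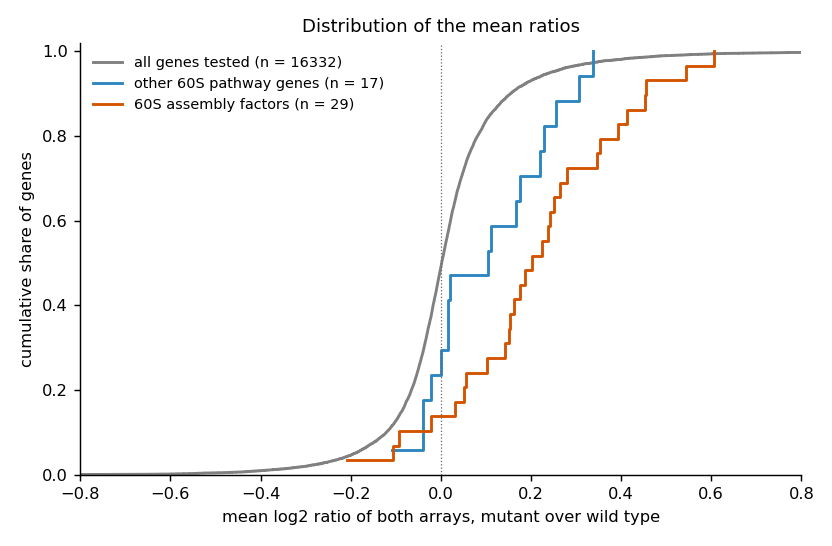
Cumulative share of genes (y axis) by the mean log2 ratio of both arrays (x axis), for all 16332 genes, 17 other genes of the 60S pathway without gnl2, and the 29 factors. The curve of the factors lies to the right of that of all genes over most of its range, with medians of 0.20 and 0.002.

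The helicases are described first. DEAD-box helicases use ATP to open or rearrange RNA, and the yeast counterparts of those measured here are needed to make the large subunit. Of the 5 measured, 4 were higher on both arrays (21.2% of all genes) and 1 was split. For ddx56, the counterpart of yeast Dbp9, the normalised signals were 2136 in mutant and 1593 in wild-type RNA on array 1, and 913 and 691 on array 2. The mutant signal was the higher one on both arrays. The log2 ratios were 0.42 and 0.40, with a mean of 0.41 ± 0.01 (SD, n = 2), a ratio of 1.33-fold, an interval from 0.17 to 0.66 and an adjusted p in limma of 1.00. A dimmer ddx56 probe gave 0.26 and -0.06, so the probes differ on array 2. Leaving the choice of probe aside, the mean over both tested probes was 0.26. The probe left out for its flag read 0.42 and 0.49 in the scanner software's own ratios.

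The helicase genes ddx27 and ddx18, counterparts of yeast Drs1 and Has1, were also higher on both arrays. For ddx27 the log2 ratios were 0.27 and 0.29, a mean of 0.28 ± 0.02 (SD, n = 2). For ddx18 they were 0.03 and 0.34. The counterpart of yeast Spb4, ddx55, had small ratios of 0.16 and 0.04. The split one was ddx54, the counterpart of yeast Dbp10. Its signals were 2867 in mutant and 2116 in wild-type RNA on array 1, but 929 in mutant and 1460 in wild-type RNA on array 2. Its log2 ratios of 0.44 and -0.65 had opposite signs. The median of the 5 helicases was 0.19, or 0.27 and 0.29 on the arrays.

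The methyltransferase gene ftsj3, the counterpart of yeast Spb1, which methylates ribosomal RNA, had log2 ratios of -0.01 and 0.13. The 3 genes of the PeBoW complex were each split between the arrays, as were 9565 of all 16332 genes. The complex is needed to mature the RNA of the large subunit and is named after its members. The ratios of pes, known from a zebrafish mutant as pescadillo, were -0.04 and 0.54. Those of bop1 were -0.06 and 0.02, and those of wdr12 were 0.17 and -0.07. Within the complex, then, only pes had a ratio over 0.2, and on array 2 alone. The mean of pes was 0.25 ± 0.41 (SD, n = 2), with an interval from -0.27 to 0.77, and that of bop1 was -0.02 ± 0.06, with an interval from -0.27 to 0.23. The intervals of both genes include 0 and overlap each other.

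Factors that join the particle early in the nucleolus formed the largest role group. Of the 12 measured, 7 were higher on both arrays (21.2% of all genes) and 5 were split. The median log2 ratio of the 12 was 0.23, or 0.13 and 0.36 on the arrays. The gene of nucleophosmin, npm1a, an abundant nucleolar protein that binds RNA and histones, was the one measured by the most probes. The normalised signals of its brightest probe were 39608 in mutant and 33646 in wild-type RNA on array 1, and 16992 and 12275 on array 2. Mutant RNA gave the higher signal on both arrays, at log2 ratios of 0.24 and 0.47. The mean was 0.35 ± 0.17 (SD, n = 2), or 1.28-fold, with an interval from 0.05 to 0.66 and an adjusted p in limma of 1.00. Its 4 probes were each higher on both arrays and had means between 0.25 and 0.38.

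Proteins with a Brix domain, a fold that binds ribosomal RNA, are encoded by ppan, rpf1 and rpf2 among the measured factors. For ppan, the counterpart of yeast Ssf1, the signals were 6106 in mutant and 5907 in wild-type RNA on array 1, and 3398 and 1869 on array 2. Most of its difference thus lay on array 2, with log2 ratios of 0.05 and 0.86. The mean was 0.46 ± 0.58 (SD, n = 2), with an interval from -0.23 to 1.14. For rpf1 the mutant signal was 3480 beside a wild-type signal of 3079 on array 1, and 1602 beside 1121 on array 2. The log2 ratios were 0.18 and 0.52, a mean of 0.35 ± 0.24 (SD, n = 2) or 1.27-fold, with an interval from -0.01 to 0.71. Both genes were higher on both arrays, and both had the larger ratio on array 2, as did nifk.

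The product of nifk, the counterpart of yeast Nop15, binds near the spacer RNA that is removed from the large-subunit precursor. Its brightest probe had signals of 8457 in mutant and 7516 in wild-type RNA on array 1, and 4414 and 2883 on array 2. The log2 ratios were 0.17 and 0.61, with a mean of 0.39 ± 0.31 (SD, n = 2), or 1.31-fold, and an interval from -0.03 to 0.82. Its other probe did not share the direction on array 2. That probe gave 0.19 and -0.34, and the mean over both probes was 0.16.

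**Figure D3:**
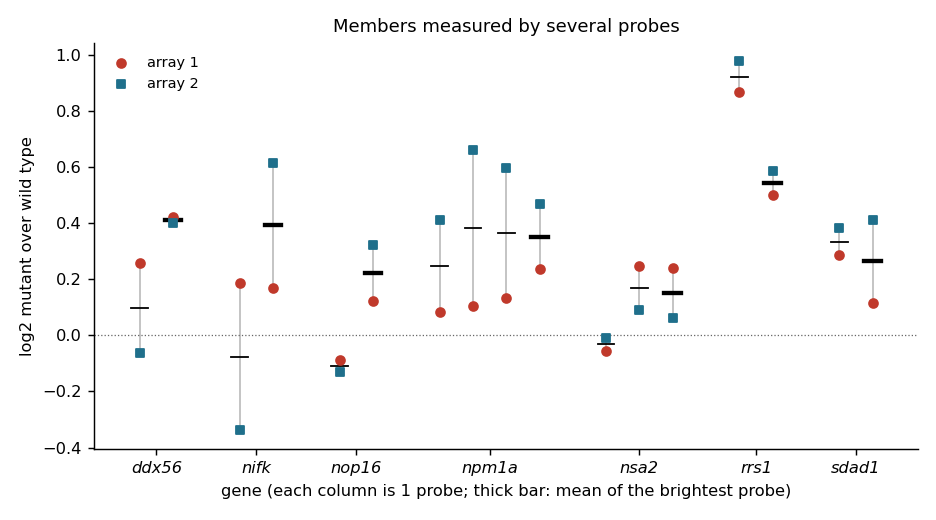
Log2 ratio of mutant over wild type for the 7 factors measured by more than 1 tested probe, with a column for each probe, red circles for array 1, blue squares for array 2, black bars for the mean and a thick bar for the brightest probe. The probes of npm1a, rrs1 and sdad1 all lie above 0, whereas ddx56, nifk, nop16 and nsa2 each have a dimmer probe with a point below 0.

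Among the other early factors the ratios were smaller or split. The gene nvl, whose yeast counterpart Rix7 is an ATPase that strips a factor from the particle, had 0.40 and 0.08. The gene nop16, whose yeast counterpart is a nucleolar 60S factor, had 0.12 and 0.32, whereas its dimmer probe gave -0.09 and -0.13. The nuclease gene nol12, the counterpart of yeast Rrp17, had 0.14 and 0.18. These 3 genes were thus higher on both arrays at their brightest probes, and for nop16 the probes pointed in opposite directions. The gene ebna1bp2, whose yeast counterpart Ebp2 binds early particles, had -0.03 and 0.31, and noc2l, the counterpart of yeast Noc2, had -0.12 and 0.18. Neither genotype was higher on both arrays for these 2 genes.

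Some factors gave large ratios of opposite sign on the arrays. Over 1 log2 unit between the arrays separated 5 of the 29 factors, against 2.5% of all genes. The share among the brighter genes alone, which hold 28 of the 29 factors, was not counted. For mak16, whose yeast counterpart pairs with Rpf1, the signals were 976 in mutant and 2370 in wild-type RNA on array 1, and 1677 and 542 on array 2. The green channel was the brighter one on both arrays, whichever genotype it held. The log2 ratios were -1.28 and 1.63, a mean of 0.18 ± 2.06 (SD, n = 2), with an interval from -2.13 to 2.48. For noc3l, whose yeast counterpart forms a pair with Noc2, it was the reverse. Its signals were 3371 in mutant and 1161 in wild-type RNA on array 1, and 1177 and 1476 on array 2, so the red channel was the brighter one each time. Its log2 ratios of 1.54 and -0.33 gave the largest mean of all factors, 0.61 ± 1.32 (SD, n = 2), with an interval from -0.89 to 2.10. Its flagged probe read 1.23 and -0.18 in the scanner software's own ratios, the same pattern.

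The gene of nucleolin, ncl, an abundant nucleolar RNA-binding protein, had the lowest mean among the factors. Its signals were 27004 in mutant and 47760 in wild-type RNA on array 1, and 21717 and 16400 on array 2. The genotypes thus changed places between the arrays, with log2 ratios of -0.82 and 0.41 and a mean of -0.21 ± 0.87 (SD, n = 2). The probe carries the symbol ncl in the files, but its accession is not listed under that gene in the RefSeq gene table. By the scanner software's error model for single arrays, ddx54, mak16, ncl and rpf2 each had a p under 0.01 on both arrays in opposite directions. The share of all genes with such opposite calls was not counted, so these calls cannot be set against a background. The same model gave 2 factors with a p under 0.01 in the same direction, rrs1 and ddx56, both higher. Among all genes 0.49% met that rule as higher and 0.171% as lower.

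**Figure D4:**
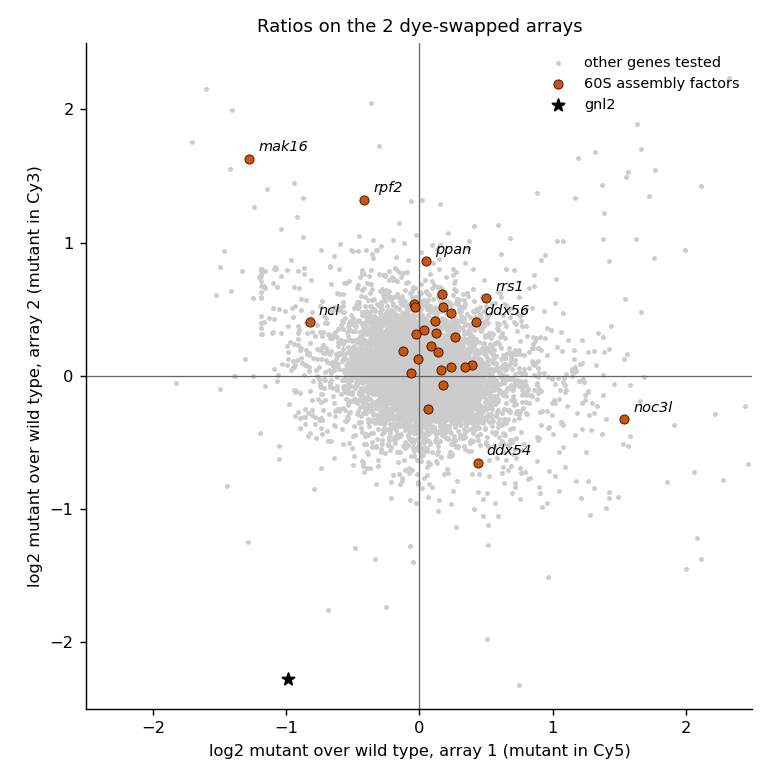
Log2 ratio of mutant over wild type on array 1 (x axis) and array 2 (y axis) for the 29 factors in orange, gnl2 as a star and the other genes tested in grey, of which 11 lie outside the plotted range. The labels mark factors with large or split ratios, and ncl, mak16, rpf2, noc3l and ddx54 lie in the quadrants where the arrays disagree.

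The 5S RNA particle is brought into the growing subunit in yeast by Rpf2 together with Rrs1, and of this pair rrs1 had the same sign on both arrays and rpf2 did not. For rrs1 the signals of the brightest probe were 8042 in mutant and 5682 in wild-type RNA on array 1, and 5430 and 3620 on array 2. Mutant RNA was brighter on both arrays, with log2 ratios of 0.50 and 0.58. The mean was 0.54 ± 0.06 (SD, n = 2), with an interval from 0.29 to 0.79, an unadjusted p of 0.00496 and an adjusted p in limma of 1.00. The dimmer probe gave larger ratios of 0.87 and 0.98, a mean of 0.92 ± 0.08 (SD, n = 2), and both probes thus had the same direction on both arrays. Among factors higher on both arrays, rrs1 had the largest mean. For rpf2 the signals were 734 in mutant and 980 in wild-type RNA on array 1, and 817 and 327 on array 2. The genotypes changed places between the arrays, with log2 ratios of -0.42 and 1.32 and a mean of 0.45 ± 1.23 (SD, n = 2). The interval of rpf2 runs from -0.94 to 1.85 and holds the whole interval of rrs1.

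**Figure D5:**
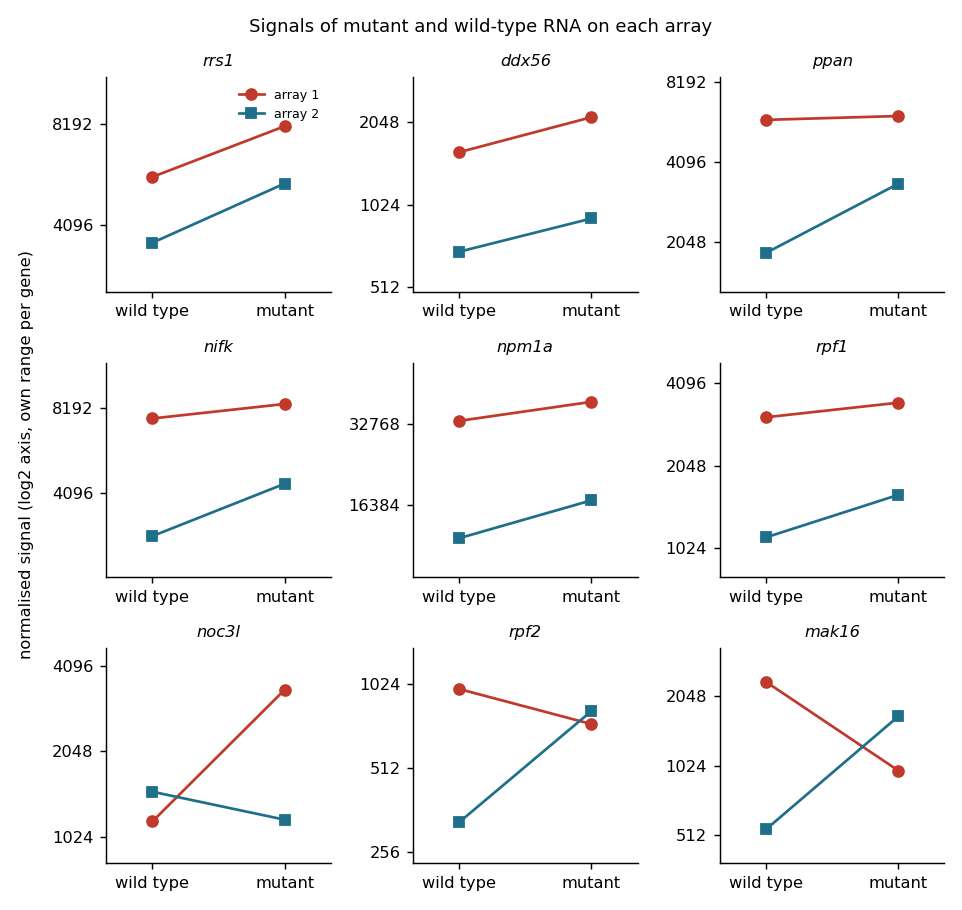
Normalised signals in wild-type and mutant RNA on array 1 (red circles) and array 2 (blue squares) for 9 factors, on log2 axes with a range of their own for each gene. Lines rise from wild type to mutant on both arrays for rrs1, ddx56, ppan, nifk, npm1a and rpf1, and cross or run in opposite directions for noc3l, rpf2 and mak16.

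Of the members for spacer removal only senp3a was measured. In human cells SENP3 is a protease that takes SUMO off nucleolar proteins. Here senp3a had log2 ratios of 0.06 and -0.25. Its signals were low, between 149 and 203, and the error that the scanner software gives for its ratio was 0.35 on array 1, against 0.17 for rrs1.

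Both late nuclear factors measured were higher on both arrays, as were 21.2% of all genes. The gene sdad1, whose yeast counterpart Sda1 is needed for export of the subunit, had log2 ratios of 0.12 and 0.41, and 0.29 and 0.38 at its other probe. Both probes were thus above 0 on both arrays, with means of 0.26 and 0.34. The gene nsa2, whose yeast counterpart is needed to mature the RNA of the large subunit, had 0.24 and 0.06. Another nsa2 probe gave 0.25 and 0.09, and a further one -0.05 and -0.01, so that 1 of its 3 probes lay just below 0 on both arrays.

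The export and cytoplasmic maturation factors had means between 0.15 and 0.24, near the median of 0.20 of the whole set. That median is the value of eif6 itself, so part of this nearness is given in advance. Their ratios on single arrays lay further apart, from -0.03 to 0.51. The product of eif6 keeps the large subunit from joining the small one until it is released in the cytoplasm. Its signals were 9451 in mutant and 7462 in wild-type RNA on array 1, and 3748 and 3587 on array 2. Mutant RNA was brighter on both arrays, mainly on array 1, with log2 ratios of 0.34 and 0.06 and a mean of 0.20 ± 0.20 (SD, n = 2). The interval ran from -0.13 to 0.53. The product of lsg1 is a GTPase that in yeast frees Nmd3 from the subunit. The mutant signal was 1987 beside a wild-type signal of 1872 on array 1, and 877 beside 752 on array 2. The log2 ratios were 0.09 and 0.22 and the mean was 0.15 ± 0.10 (SD, n = 2), with an interval from -0.11 to 0.42. The third gene, rsl24d1, whose yeast counterpart Rlp24 holds the place of a ribosomal protein, had -0.03 and 0.51. The median of the 3 genes was 0.20, or 0.09 without array 2.

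Further genes of the 60S pathway, which are no members of the set, showed a smaller median. Of 35 listed, 18 were measured, gnl2 among them. Without gnl2 the median log2 ratio was 0.11, or 0.07 and 0.009 on the arrays. Of these 17, 7 were higher on both arrays (21.2% of all genes), 1 lower (20.3% of all genes) and 9 split. The lower one was tex10, a rixosome gene, at -0.16 and -0.06. Its partner wdr18 had 0.03 and 0.0087, and mtrex, the counterpart of the yeast RNA helicase Mtr4, had 0.05 and -0.04, so neither was far from 0. In limma 0 of the 18 were called. At an unadjusted p under 0.05 in limma, pa2g4b was higher and gnl2 lower, against 1.97% and 1.22% of all genes. For pa2g4b, a relative of the yeast export factor Arx1, the log2 ratios were 0.36 and 0.25, while those of its paralog pa2g4a were 0.18 and -0.25. The GTPase gene gtpbp4, the counterpart of yeast Nog1, had 0.07 and 0.61. The GTPase genes gnl3 and gnl3l, relatives of gnl2, had 0.41 and -0.06, and -0.04 and 0.25. Whether the 29 factors differ from these genes was not tested.

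Signals of other gene sets are given here without a test of any list, and in whole embryos fewer cells of a type and less RNA per cell cannot be told apart. Of 65 marker genes listed for tissues and dividing cells, 48 had a tested probe. Of the 10 neural progenitor genes measured, 9 were lower on both arrays, and their summed signal was 29283 in mutant and 40121 in wild-type RNA on array 1, and 20188 and 23879 on array 2. Among the 10 proliferation genes 7 had both ratios below 0 and 0 had both above 0, with sums of 107336 and 111366 on array 1, and 49826 and 67968 on array 2. Of the 9 skeletal muscle genes 5 were higher on both and 0 lower, with sums of 106130 and 81473, and 65204 and 63188. The median mean ratios of these lists were -0.24, -0.12 and 0.41. Their medians on arrays 1 and 2 were -0.41 and -0.13, -0.099 and -0.27, and 0.29 and 0.21. For muscle the median of the means thus lay above both array medians. For the remaining lists the median means were -0.32 for epidermis, 0.14 for erythroid, 0.18 for notochord and -0.045 for yolk genes. In the same order, the array medians were -0.57 and 0.073, 0.11 and 0.10, 0.0034 and 0.19, and -0.033 and -0.093. Among all genes 21.2% had both ratios above 0 and 20.3% both below 0. Both ratios were above 0 for 5 of 6 erythroid genes, but their summed signal was 16367 in mutant and 17502 in wild-type RNA on array 1 and 10567 and 6887 on array 2. Both were below 0 for 3 of 6 epidermis genes, with sums of 176764 and 318960 on array 1 but 192226 and 159284 on array 2. The sums of these lists thus had opposite orders on the arrays. Of the notochord genes 1 of 4 had both ratios above 0, with sums of 15791 and 13497 on array 1 and 9018 and 8120 on array 2. Of the yolk genes 2 of 3 had both below 0, with sums of 79405 and 86057, and 12244 and 13194. The part of cell composition in the ratios of the 60S factors was not tested.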

How the data were processed

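Per the file headers, the deposited intensity of a spot is its mean pixel signal, with a median local background, as read by Agilent's Feature Extraction software. The software's processed intensities were detrended in space and dye-normalized by lowess, per the file headers, and its log10 ratios are red over green. The deposited value table holds these log10 ratios with the sign not turned, within 0.00499 of the scanner files. Per the file headers, each deposited p-value comes from an error model for a single array. Signals were corrected with normexp (offset 50) and normalized by loess (span 0.3), giving controls and outlier flags weight 0. This used limma 3.58.1 and R 4.3.3. Outlier flags removed 749 probes, and 1462 were not well above background in either genotype on both arrays. Probes were tested with lmFit and eBayes, 2-sided, with Benjamini-Hochberg adjustment over 19284 probes. The script was tested on simulated data.

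Names came from an accession for 7323 of 21495 gene probes, from a symbol for 755 and from an older symbol for 2261 (RefSeq tables of GRCz12tu), and 11156 kept the file's name. Each gene's value comes from its brightest probe. All measured members are named. Members of at least 0.3 in absolute mean log2 ratio, and lsg1 and eif6, are given with their signals. The signals of mak16, ncl and ddx54 were added after their values were seen. The members and lists were chosen with earlier results of these data known. Sequences were not used here.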

Additional observations from a re-analysis of the deposited data

How the results depend on the processing

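The median log2 ratio of the measured factors lay between 0.18 and 0.23 over 9 alternatives of background, normalization, filters and probe choice, and the number higher on both arrays between 15 and 17. No member's mean changed sign under these, but each alternative uses the same 2 arrays, between which 13 of 29 members had opposite signs. The changed filters on dim or saturated probes left the median at 0.20 and the count at 16. All tested member probes were unsaturated and well above background, so those filters could show little about the members. With median centring in place of loess, 38 probes passed an adjusted p under 0.05, none of them a member, 1 member was lower on both arrays, and the medians of helicases and PeBoW genes were 0.22 and 0.094. The scanner software's p-values, which do not use the spread between arrays, called 133 probes and 2 members. The 4 members at an unadjusted p under 0.05 became 2 with Agilent's ratios, normexp without the offset, or an intensity trend with robust eBayes (rrs1 and ddx56), and with median centring (rrs1 and noc3l). The cause was not tested. With each array left out in turn, the medians ranged from 0.12 to 0.31 for all factors, 0.27 to 0.29 for helicases, -0.040 to 0.018 for PeBoW genes, 0.086 to 0.22 for export and cytoplasmic factors, and 0.0087 to 0.070 for the other pathway genes. They ranged from 0.13 to 0.36 for the other early nucleolar factors, 0.042 to 0.95 for rpf2 with rrs1, and 0.18 to 0.24 for late nuclear factors. The values of ftsj3 and senp3a, each measured alone in its role group, ran from -0.014 to 0.13 and from -0.25 to 0.061. Counts over both arrays have no value with 1 array left out. The medians of the mean ratios lay outside these ranges for helicases (0.19), PeBoW genes (0.052) and the other pathway genes (0.11). Some single helicases moved further than their median, such as ddx54 with 0.44 on array 1 and -0.65 on array 2. Averaging all probes of a gene gave 0.73 for rrs1, 0.26 for ddx56 and 0.06 for nop16. The series holds 1 contrast, measured within each array, so every ratio already pairs mutant with wild type. No further pairing was used. A dim probe such as that of senp3a carries a larger error within an array, and the number of arrays limits all values.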
